A study of Drosophila melanogaster with 12 samples.

Results

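The comparison described here is that of fly heads 24 h after a session labelled as non-conditioning with heads at 0 h after it. It rests on 6 of the 12 arrays of a series that crosses conditioning (conditioned or non-conditioned) with time (0 h or 24 h), with 3 arrays in each of the 4 groups. The arrays were chosen by their descriptions alone. Each array held total RNA from whole heads of Drosophila melanogaster. The labels give the treatment type as a behavioural stimulus and carry the letters OR, which they do not expand. All 4 groups carry the same letters and the same source tissue. The labels do not give the stimulus, the sex or age of the flies, or the clock time of the dissections, so whether the 2 groups differed in age or time of day as well is not known. No label says that the arrays of the non-conditioned groups came from separate flies. The p-values measure a spread between arrays within groups that was pooled over all 12 arrays. This spread may be technical in part.

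A fly head holds the brain and the eyes together with a layer of fat tissue, muscle, cuticle and circulating blood cells. The fat body does the work that liver and fat share in mammals: it stores lipid and sugar, breaks down amino acids, detoxifies and secretes proteins into the blood. It is also the main source of antimicrobial peptides, which are switched on through the Imd and Toll pathways and their NF-kappaB transcription factors. Many head transcripts also follow the circadian clock, and transcripts of some genes rise within minutes to hours of neuronal activity.

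Levels were read as linear intensities of 11261 probe sets (groups of oligonucleotide probes for a transcript) and compared as log2(intensity + 16), which understates the changes of dim probe sets. Non-conditioned heads had 355 probe sets that were higher at 24 h (3.15% of those tested) and 233 that were lower (2.07%), together 588 or 5.22%, at a Benjamini-Hochberg adjusted p under 0.05 in limma, a linear model fitted to all probe sets at once. Changes below are log2 differences (24 h minus 0 h) ± the standard error of the fit, with 3 arrays in each group. The calls stand for 317 genes that rose and 191 that fell. Most changes were small: the median was 0.343 on the log2 scale among rises, a 1.27-fold change, and -0.372 among falls. Only 7 rises and 23 falls passed 2-fold. The groups at 0 h and 24 h did not overlap in 353 of the 355 and 226 of the 233 probe sets, against 2158 of all probe sets (19.2%). The calls were made on the same arrays, so this separation follows in part from the selection and is not further support. Under median centring the counts were 516 and 162, so the share of rises among the calls went from 60.4% to 76.1%, while the median of all probe sets moved by 0.04. Leaving out 24 h replicate 3 gave 171 and 126 calls, leaving out 24 h replicate 2 gave 385 and 370, and leaving out 0 h replicate 1 gave 149 falls. In any of these fits 0 of the 588 changed sign, but the fits share arrays with the main fit and are not independent of it. Of 125 genes named by rule that passed, 42 missed the threshold without at least 1 of the 6 arrays.

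**Figure D1:**
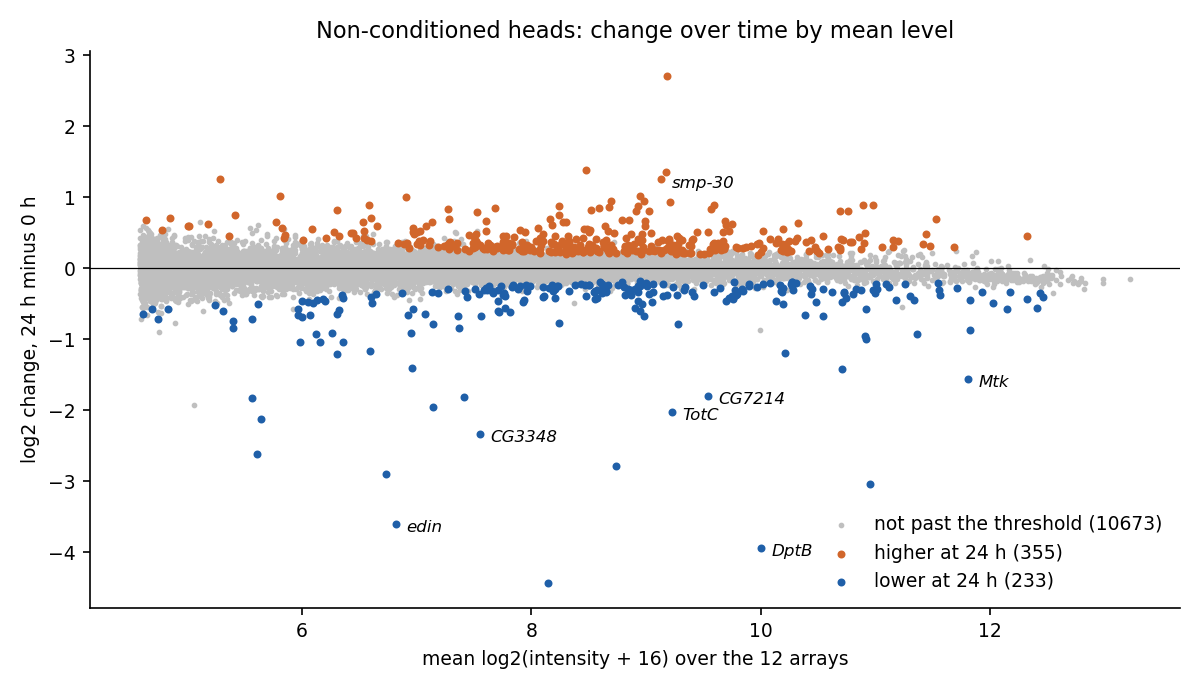
Each point is a probe set; the horizontal axis gives its mean log2(intensity + 16) over the 12 arrays and the vertical axis its log2 change from 0 h to 24 h in non-conditioned heads. Rises past the threshold (355) mostly lie below 1, whereas 23 of the 233 falls lie below -1, with DptB at -3.94 and edin at -3.59.

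The deposited scaling gives each array a 2%-trimmed mean of 150. Log2 values correlated at 0.9914 to 0.9922 within the 0 h group, 0.9915 to 0.9935 within the 24 h group and 0.987 to 0.9906 between them. Markers of eye, neurons, glia and fat body were detected, for example trp between 3910 and 5130 and elav between 639 and 766. Others were repo between 338 and 427 and Lsp2 between 4380 and 7810. The fat body marker Fbp1, however, lay between 0.878 and 3.3 and was left out by the filter on dim probe sets. The ovary marker osk had intensities of at most 11.8. The yolk protein gene Yp1 lay between 7.47 and 17.6 in these 6 arrays. In 24 h replicate 1 several lists of bright genes had low summed intensities: the oxidative phosphorylation genes summed to 120453 there and to 133633 to 152268 in the other 5 arrays, and the cytosolic ribosomal protein genes to 123183 and to 146387 to 167263. This array had the lowest of the 6 sums in 30 of 51 gene lists and the lowest of the 24 h sums in 41. Another array stands apart by its transcripts: in replicate 3 at 0 h, 14 of 43 accessory gland probe sets, which are typical of the male reproductive tract, exceeded 30 and 2 times the next array. Their summed intensity was 1533 there and 40.6 to 57.9 in each of the other 11 arrays, and the gut protease genes alphaTry and Jon65Aiv were also higher there, at 96.9 and 42.4. Of the accessory gland list 10 genes were tested, and 0 passed. Without that array 275 probe sets were higher and 161 lower, 390 of the 588 were still past the threshold and 0 changed sign. Counts of gene lists without it are given below. The part of this RNA in the results was not tested.

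Antimicrobial peptide genes fell together. Of 19 on the array, 15 were tested; 10 fell, 0 rose, and the median change was -0.497, against 2.15% of all 8603 genes falling, 3.63% rising and a median of 0.002. These shares over all genes are the background for each list below. The lists were chosen with earlier results of these data known, so a share above the background is not independent support. Without the array with accessory gland transcripts 7 fell and 0 rose. Under quantile normalization and without 24 h replicate 1, the peptide gene Drsl4 also passed, as a rise; its change as reported is 0.24 (adjusted p = 0.0987). In whole heads, fewer cells of a type and less RNA per cell cannot be told apart, here and in the groups below.

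The largest falls of the group were those of DptB, edin and Def. DptB, which encodes the antibacterial peptide diptericin B, had intensities of 3136, 2456 and 2927 at 0 h and 147, 47.5 and 597 at 24 h. No 24 h array came near the 0 h arrays, and within the 24 h group the values spread widely. Its log2 change was -3.94 ± 0.42, adjusted p = 3.35e-05. The gene edin, induced by infection, had intensities of 914, 84.3 and 518 at 0 h and 5.36, 6.34 and 43.3 at 24 h. The log2 change was -3.59 ± 0.62, adjusted p = 0.00208, although 0 h replicate 2 lay far below the other 0 h arrays and 2 of the 24 h values were under 8.05, the lowest mean intensity among tested probe sets. Def, the defensin gene, had intensities of 172, 41.6 and 88.1 at 0 h and 9.87, 2.59 and 12.5 at 24 h and a change of -2.12 ± 0.29, adjusted p = 0.000295. CecB, a cecropin gene, had intensities of 38.5, 75.0 and 114 at 0 h and 27.4, 21.5 and 30.1 at 24 h, a change of -1.03 ± 0.21, adjusted p = 0.00733, which missed the threshold without replicate 3 of either group (-0.84 and -0.92, adjusted p = 0.0572 and 0.0627).

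Mtk, Drs and the bomanins fell by smaller amounts than DptB, edin and Def. Mtk, the metchnikowin gene, had intensities of 5741, 5092 and 6415 at 0 h and 1952, 1029 and 3563 at 24 h. The change was -1.56 ± 0.24, adjusted p = 0.000787. Drs, which encodes the antifungal drosomycin, had intensities of 2151, 3511 and 3666 at 0 h and 1146, 584 and 2075 at 24 h and a change of -1.42 ± 0.32, adjusted p = 0.0153, and it missed the threshold without 0 h replicate 2 or 3 (-1.26 and -1.35, adjusted p = 0.0746 and 0.0645), with no filter, without the variance trend and with array weights. In DptB, Def, Mtk and Drs replicate 2 had the lowest value of the 24 h arrays and replicate 3 the highest. The bomanins, short peptides induced through Toll, stayed high at 24 h. BomBc2 had intensities of 4910, 5001 and 5713 at 0 h and 3161, 3786 and 4153 at 24 h, a change of -0.50 ± 0.08, adjusted p = 0.00107. BomT2, BomBc3 and BomS2 fell by 0.45, 0.57 and 0.43, and the 2 groups did not overlap in any of the 4. BomS2 missed the threshold without 0 h replicate 3. The remaining tested members, Listericin, Drsl1, IM33 and Drsl5, had values of -0.34, 0.27, -0.12 and -0.01 and did not pass.

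**Figure D2:**
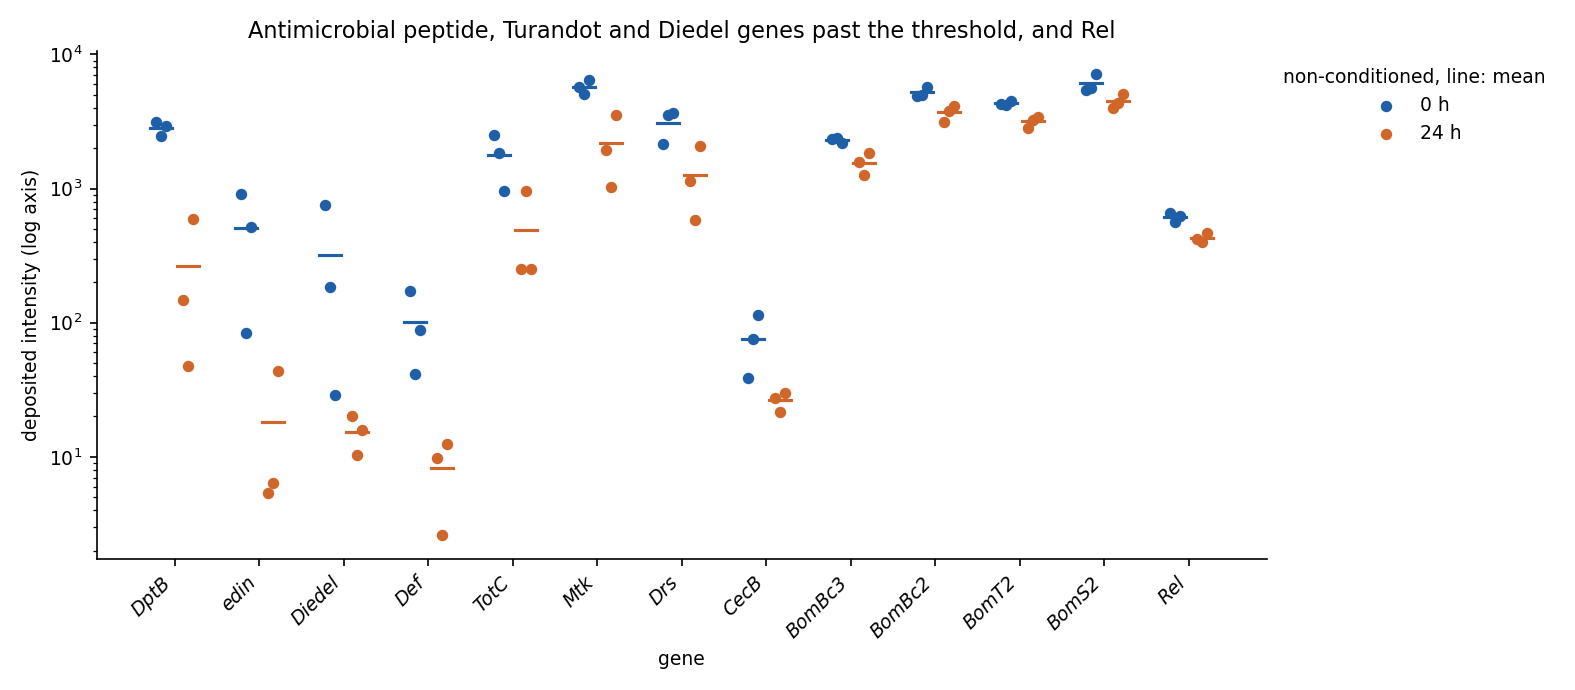
Deposited intensity on a log axis for the 10 antimicrobial peptide genes, TotC and Diedel past the threshold, and for Rel, in the 3 arrays at 0 h and the 3 arrays at 24 h of non-conditioned heads; points are arrays and lines are means. All 24 h points lie below all 0 h points of the same gene, with the widest gaps in DptB, edin and Def, and with Diedel spread over 28.8 to 751 at 0 h.

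Several genes that carry or dampen the Imd signal fell with the peptides. Of 28 tested genes of immune recognition and signalling, 4 fell and 1 rose, and the median change was -0.022. Rel, the NF-kappaB factor of the Imd pathway, had intensities of 653, 559 and 629 at 0 h and 419, 400.4 and 469 at 24 h. The 2 groups were well apart and the change was -0.50 ± 0.06, adjusted p = 9.24e-05. PGRP-LB, an amidase that degrades peptidoglycan, fell by 0.67 (adjusted p = 0.0108), and pirk, an inhibitor of Imd signalling, fell by 0.57 (0.0129). PGRP-SC2, another amidase gene, had intensities of 216, 58.1 and 128 at 0 h and 34.8, 28.0 and 73.3 at 24 h; it passed at -1.21 ± 0.30, adjusted p = 0.0245, but its groups overlapped. Stat92E, the transcription factor of the JAK/STAT pathway, rose, with 1449, 1463 and 1437 at 0 h and 1692, 1781 and 1897 at 24 h (0.30 ± 0.06, adjusted p = 0.00625), and it missed the threshold without 24 h replicate 3 (0.24, adjusted p = 0.0748). The Toll pathway genes dl, cact, Myd88 and SPE did not pass and had values of 0.12, -0.07, -0.12 and -0.09. Without 0 h replicate 3 the falls were Rel and PGRP-SB1, and PGRP-LB, pirk and PGRP-SC2 missed the threshold, without 0 h replicate 1 the falls were Rel and PGRP-LB, and PGRP-LB and pirk also missed it without 24 h replicate 3.

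TotC and Diedel, both stress- and immune-induced secreted proteins, were the 2 tested members of a list of 6, the Turandot genes and Diedel, and both fell. TotC had intensities of 2528, 1852 and 964 at 0 h and 253, 957 and 252 at 24 h, a change of -2.02 ± 0.30, adjusted p = 0.000617. The 0 h and 24 h ranges nearly touched, at 964 and 957. Diedel had intensities of 751, 186 and 28.8 at 0 h and 20.1, 10.3 and 15.8 at 24 h and a change of -2.61 ± 0.58, adjusted p = 0.0137. Its lowest 0 h value, in replicate 3, lay closer to the 24 h values than to the other 0 h values, and without 0 h replicate 1 the change was -1.66. It missed the threshold with no filter and without the variance trend. CG3348 fell as well, with 696, 364 and 442 at 0 h and 41.3, 149 and 87.2 at 24 h and a change of -2.33 ± 0.35, adjusted p = 0.000692. Sid, which encodes a stress-induced DNase, fell, with 136, 118 and 176 at 0 h and 79.1, 30.9 and 62.9 at 24 h (-1.16 ± 0.23, adjusted p = 0.00622).

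A second group of falls came from muscle. Of 27 tested sarcomere genes 11 fell and 0 rose, with a median change of -0.239, and in conditioned heads 11 fell as well. None of these falls reached 1.5-fold. Mlc2, a myosin regulatory light chain gene, had intensities of 1095, 899 and 1037 at 0 h and 693, 788 and 754 at 24 h, a change of -0.43 ± 0.07, adjusted p = 0.00114. Tm2, a tropomyosin gene, had 673, 592 and 694 at 0 h and 448, 530.1 and 514 at 24 h (-0.38 ± 0.07, adjusted p = 0.00308). Act87E, an actin gene, had 663, 643 and 829 at 0 h and 525, 524 and 582 at 24 h (-0.37 ± 0.07, adjusted p = 0.00326), and Zasp66, a Z-disc protein gene, had 1552, 1467 and 1677 at 0 h and 1243, 1276 and 1293 at 24 h (-0.30 ± 0.05, adjusted p = 0.0023). Of the other probe sets for Zasp66, 1 lay at -0.32 and a dim one at 0.03. Zasp66 missed the threshold in a fit of the non-conditioned arrays alone. The other 7 falls were in Mlp84B, Mlc1, Actn, Mf, Prm, up and Zasp52, at changes of -0.34 to -0.19. Without 0 h replicate 3 or without 0 h replicate 1, 7 fell, without 24 h replicate 3 5 did, and under median centring 8. The summed intensity of the 27 genes was 27560, 26094 and 30146 at 0 h and 22041, 25138 and 24013 at 24 h. The 2 ranges did not overlap, but neither did those of the proteasome list, in which 0 genes passed. The lowest sum was that of 24 h replicate 1, without which 11 genes fell and the median was -0.208.

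Several transcripts known to rise after neuronal activity fell. Of 29 tested, 7 fell and 0 rose, with a median of -0.124. Without 0 h replicate 3, 5 fell and kay, the Drosophila fos gene, rose; without 24 h replicate 3, 4 fell. The transcription factor gene cbt had intensities of 1968, 1729 and 1779 at 0 h and 1093, 1184 and 1185 at 24 h, and its change of -0.65 ± 0.08, adjusted p = 6.42e-05 had the lowest p of the list. Cdc7, a kinase gene, had 277, 205 and 293 at 0 h and 173, 181 and 151 at 24 h (-0.56 ± 0.10, adjusted p = 0.00329), and CG14186 had 558, 541 and 579.9 at 0 h and 458, 364 and 391 at 24 h (-0.46 ± 0.08, adjusted p = 0.00308). Arc1, which encodes a capsid-like protein that carries RNA between cells, had 1434, 1340 and 1272 at 0 h and 1089, 1053 and 1084 at 24 h (-0.32 ± 0.07, adjusted p = 0.00776). Jra, the Drosophila jun gene, and hry, the hairy repressor gene, fell by 0.32 and 0.34, and each missed the threshold without any 1 of several arrays, 24 h replicates 1 and 3 among them. The nuclear receptor gene Hr38 overlapped between the groups, with 83.1, 57.0 and 114 at 0 h and 62.2, 41.4 and 46.4 at 24 h; it passed narrowly (-0.58 ± 0.16, adjusted p = 0.0465), missed the threshold without any 1 of 8 arrays, among them 0 h replicates 1 and 3 and 24 h replicates 2 and 3 (-0.53, -0.42, -0.52 and -0.43), and a second probe set of it lay at -0.07.

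Among clock genes 2 of 19 fell and 1 rose, 2 and 0 without 0 h replicate 3. The clock repressor gene tim had 1024, 1040 and 1056 at 0 h and 803, 744 and 714 at 24 h, tightly grouped at both times, with a change of -0.46 ± 0.07, adjusted p = 0.000457 and -0.61 on its other probe set. Fbxl4 fell, with 296, 306 and 303 at 0 h and 209, 239.7 and 223 at 24 h (-0.41 ± 0.07, adjusted p = 0.00126). The blue light receptor gene cry rose, with 503, 535 and 505 at 0 h and 621, 652 and 618 at 24 h (0.29 ± 0.07, adjusted p = 0.0198), and it missed the threshold without 0 h replicate 1 or 3 or 24 h replicate 2 (0.28, 0.25 and 0.25). The partner of tim, per, had 211, 242 and 230.2 at 0 h and 227, 178 and 209 at 24 h, with overlapping groups and a value of -0.14 (adjusted p = 0.488). The repressor gene cwo also overlapped, with 479, 558 and 524 at 0 h and 491, 408 and 424 at 24 h and a value of -0.23 (0.0859), and vri, Pdp1, Clk and cyc had values of -0.16, -0.16, 0.25 and 0.06. The labels give the interval but no clock time, and whether the 0 h and 24 h heads were taken at the same phase of the day is not known.

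Of 70 tested cuticle genes 6 fell and 3 rose, the last a share near that over all genes. The rises were Cpr60D and the chitinase-like genes Idgf2 and Idgf5. Without 0 h replicate 3, 4 fell and 1 rose, and without 24 h replicate 3, 4 fell and 0 rose. Cpr97Eb, a structural cuticle protein gene, had 115, 81.3 and 97.0 at 0 h and 45.1, 41.5 and 30.6 at 24 h and a change of -1.04 ± 0.12, adjusted p = 7.76e-05, and the highest 24 h array was under the lowest 0 h array. Cpr49Ag, Cpr100A and serp, the last a chitin deacetylase gene, fell by 0.65, 0.42 and 0.66. CG7214 and CG7203, for which no role is given here, also fell. CG7214 had 1552, 1385 and 1263 at 0 h and 338, 534 and 326 at 24 h (-1.80 ± 0.15, adjusted p = 2.18e-06), and CG7203 had 5004, 4634 and 5337 at 0 h and 2159, 3295 and 2803 at 24 h (-0.87 ± 0.12, adjusted p = 0.000229). CG42807, CG8736, CG14022 and CG11458 fell by 1.41, 1.04, 0.84 and 0.79.

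Of 24 tested members of a head fat body list, 8 rose and 3 fell, with a median of 0.179; without 0 h replicate 3 these were 7 and 2, and without 24 h replicate 3 they were 5 and 2. The lowest p of the list was that of smp-30, a gene of the SMP-30/regucalcin family, which had 327, 312 and 356 at 0 h and 848, 756 and 828 at 24 h. Each 24 h array was more than 2 times the highest 0 h array, and the change was 1.25 ± 0.07, adjusted p = 4.92e-08, although a second probe set of the gene lay at 0.20. Sodh1, a sorbitol dehydrogenase gene, had 1242, 1513 and 1365 at 0 h and 2453, 2524 and 2675 at 24 h (0.89 ± 0.09, adjusted p = 1.11e-05). The gene fit, which is expressed in head fat and more strongly in females, had 371, 162 and 243 at 0 h and 749, 609 and 604 at 24 h (1.35 ± 0.32, adjusted p = 0.0199), and it missed the threshold without 0 h replicate 2 or 24 h replicate 1 or 3 (0.99, 1.31 and 1.26). Lsp2, a storage protein gene, had 4378, 4625 and 4986 at 0 h and 5189, 7806 and 6348 at 24 h (0.45 ± 0.12, adjusted p = 0.0404). It missed the threshold without any 1 of 0 h replicates 1, 2 and 3 and 24 h replicates 2 and 3, and without 24 h replicate 2 the change was 0.29. Apoltp, which encodes a lipid transfer particle, had 1001, 993 and 826 at 0 h and 1285, 1201 and 1272 at 24 h (0.41 ± 0.07, adjusted p = 0.00135), and Mtp, the microsomal triglyceride transfer protein gene, rose by 0.36 (0.00333). The gene of the main blood lipoprotein, apolpp, overlapped between the groups and had a value of -0.05 (adjusted p = 0.844). The summed intensity of the list was 43907, 44609 and 50736 at 0 h and 42945, 53420 and 50085 at 24 h, and those ranges overlapped.

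Some genes of lipid storage fell. The triglyceride lipase gene bmm had 671, 556 and 682 at 0 h and 460.5, 357 and 419.6 at 24 h (-0.61 ± 0.08, adjusted p = 0.000332). Lsd-1, which encodes the perilipin that coats lipid droplets, had 1960, 1717 and 2230 at 0 h and 1355, 1425 and 1422 at 24 h (-0.48 ± 0.08, adjusted p = 0.00101), and the fatty acid synthase gene FASN1 fell by 0.35 (0.0425), a call that was lost without any 1 of the non-conditioned arrays other than 24 h replicate 2. In the wider list of fatty acid synthesis and storage, 4 of 33 rose and 4 fell, 4 and 3 without 0 h replicate 3, with bgm, a very long chain acyl-CoA synthetase gene, at -0.42 and the sterol-binding Npc2h at 0.45. Of 24 genes of fatty acid oxidation 4 rose and 0 fell, 3 and 0 without 0 h replicate 3. The hydroxyacyl-CoA dehydrogenase gene Had1 had 1124, 1377 and 1292 at 0 h and 2117, 2291 and 2254 at 24 h (0.81 ± 0.08, adjusted p = 1.50e-05). The thiolase gene yip2 and CRAT, the carnitine acetyltransferase gene, rose by 0.40 and 0.34. The fourth rise, Acox57D-p (0.25), missed the threshold without any 1 of the non-conditioned arrays other than 24 h replicate 2.

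Of 37 tested genes of amino acid breakdown 9 rose, against 3.63% of all genes, and 0 fell. The count of rises was 8 without 0 h replicate 3 and 6 without 24 h replicate 3, and the median was 0.124. CG10621 rose, with 319, 285 and 286 at 0 h and 588, 621 and 639 at 24 h (1.02 ± 0.08, adjusted p = 1.14e-06). Oat, the ornithine aminotransferase gene, had 199.5, 201 and 178 at 0 h and 313, 279 and 256 at 24 h (0.51 ± 0.07, adjusted p = 0.000163), and ry, the gene of the purine enzyme xanthine dehydrogenase, had 169, 175 and 146 at 0 h and 239, 209 and 245 at 24 h (0.46 ± 0.08, adjusted p = 0.00222). Neighbouring steps of tyrosine breakdown, Hpd and hgo, rose by 0.34 and 0.37, and hgo missed the threshold without 0 h replicate 1 or 24 h replicate 1 or 3. In sugar metabolism 4 of 25 genes rose and 1 fell, 3 and 1 without 0 h replicate 3. The median of the list was 0.001, and 13 of the 25 lay above 0. Pepck2, a phosphoenolpyruvate carboxykinase gene, had 349, 489.7 and 315 at 0 h and 665, 821 and 725 at 24 h (0.93 ± 0.13, adjusted p = 0.000336), and fbp, the fructose-bisphosphatase gene, rose by 0.31. Both act in gluconeogenesis, and the other rises of the list were Taldo and UGP. Hex-A, a hexokinase gene of glycolysis, fell by 0.38. The isocitrate dehydrogenase subunit gene Idh3a fell by 0.42. Idh3g, another subunit gene, had a value of -0.24 and missed the threshold under median centring and without any 1 of the non-conditioned arrays other than 24 h replicate 2.

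**Figure D3:**
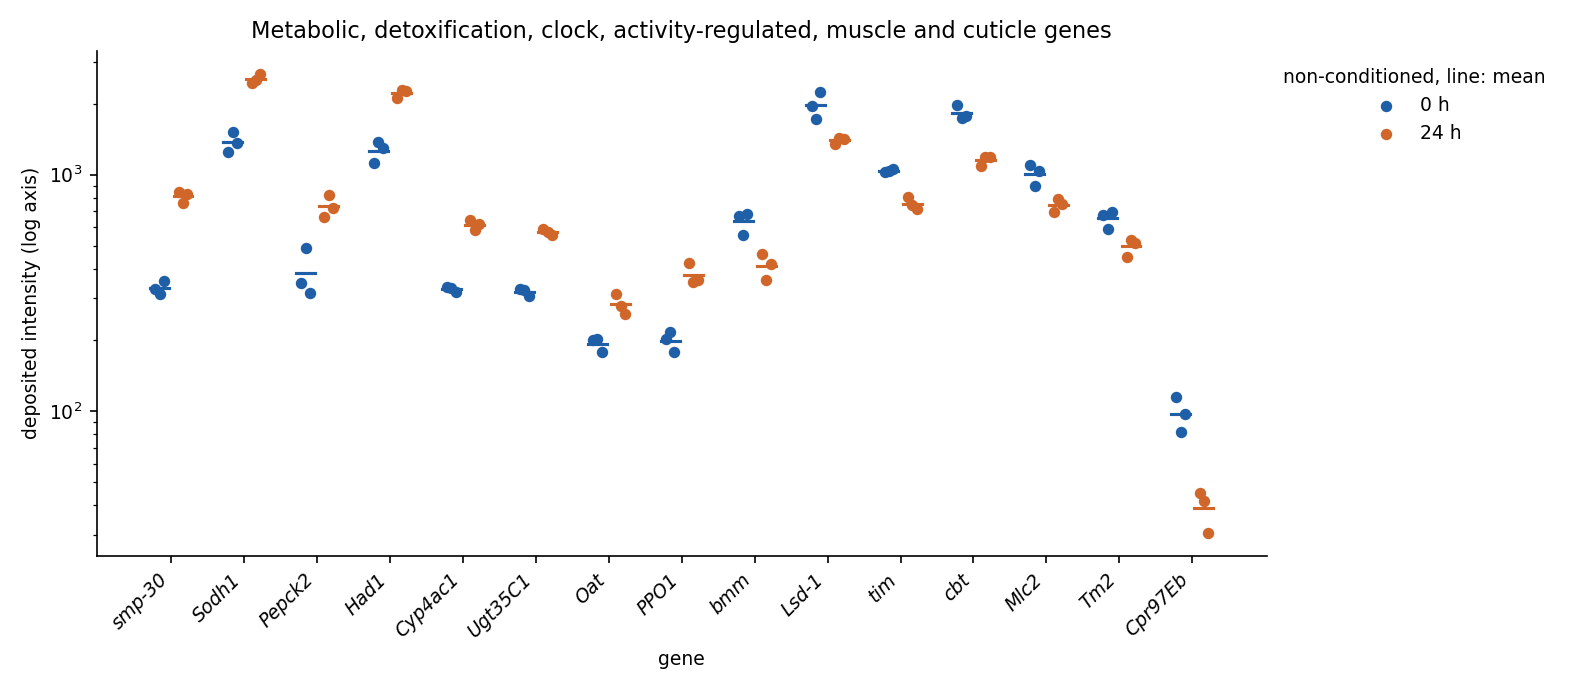
Deposited intensity on a log axis for 15 genes of fat body, metabolism, detoxification, clock, neuronal activity, muscle and cuticle, with the 3 arrays at 0 h and the 3 at 24 h of non-conditioned heads; points are arrays and lines are means. The first 8 genes, from smp-30 to PPO1, have all 24 h points above all 0 h points, and the last 7, from bmm to Cpr97Eb, have them below.

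Some detoxification genes rose in each of 3 enzyme families. Of 70 tested cytochrome P450 genes 11 rose and 2 fell, 8 and 1 without 0 h replicate 3 and 6 and 1 without 24 h replicate 3, with a median of 0.093. Under median centring 17 rose and 2 fell. Cyp4ac1 had 334, 331 and 318 at 0 h and 643, 585 and 617 at 24 h (0.87 ± 0.06, adjusted p = 1.69e-07), and its neighbour Cyp4ac2 rose by 0.65. Cyp6t1 and Cyp6d2 rose by 0.67 and 0.71. The falls were Cyp18a1, which inactivates the moulting hormone ecdysone, at -0.37, and Cyp4aa1 at -0.44, the last lost without 0 h replicate 1 or 3 or 24 h replicate 2 or 3. Of 20 UDP-glycosyltransferase genes 3 rose and 0 fell, 4 and 0 without 0 h replicate 3. Ugt37A3 was dim, at 20.2, 16.4 and 10.9 at 0 h and 44.9, 48.8 and 49.7 at 24 h (1.01 ± 0.15, adjusted p = 0.000454), and Ugt35C1 had 329, 326 and 306 at 0 h and 589, 571 and 556 at 24 h (0.81 ± 0.08, adjusted p = 1.60e-05). Of 30 glutathione transferase genes 3 rose, GstE3, GstE7 and GstE9, by 0.39, 0.42 and 0.34; the count was 3 without 0 h replicate 3 and 0 without 24 h replicate 3. These 3 genes are close relatives, and probes can bind transcripts of more than 1 of them, as may also hold within the P450 and glycosyltransferase families.

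Of 27 tested hemocyte genes 5 rose and 1 fell, 4 and 0 without 0 h replicate 3 and 3 and 0 without 24 h replicate 3. Of 34 genes of serpins, proteases and melanization 4 rose and 1 fell, with a median of -0.054, 4 and 2 without 0 h replicate 3. The prophenoloxidase genes PPO1 and PPO2, whose enzymes make melanin at wounds, both rose. PPO1 had 201, 217 and 177 at 0 h and 422, 350.2 and 358 at 24 h (0.87 ± 0.08, adjusted p = 9.79e-06), and PPO2 had 174, 271 and 188 at 0 h and 347, 355 and 336 at 24 h (0.70 ± 0.11, adjusted p = 0.000873). The phagocytosis receptor gene NimC1 rose by 0.30, a call lost without replicate 3 of either group, and the matrix protein gene Glt by 0.39, whereas Hml, the clotting protein gene of hemocytes, fell, with 219, 221 and 224 at 0 h and 192, 183 and 176 at 24 h (-0.25 ± 0.06, adjusted p = 0.0237). The fall of Hml was lost under median centring and without 0 h replicate 3 or 24 h replicate 2 or 3. Spn27A, an inhibitor of melanization, fell by 0.40 (0.00325).

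Single genes of hormone and peptide signalling also changed. The insulin-like peptide gene Ilp5 had 273, 322 and 271 at 0 h and 438, 406 and 408 at 24 h (0.51 ± 0.07, adjusted p = 0.000427), and CCHa2, a peptide gene expressed in fat and gut, rose by 0.33 (0.0186), a call lost without 0 h replicate 1 or 2 or 24 h replicate 1 or 3. The alpha-glucosidase gene tobi, a target of insulin signalling, had 238, 229 and 263 at 0 h and 446, 369 and 364 at 24 h (0.65 ± 0.09, adjusted p = 0.000288). Jhe, the juvenile hormone esterase gene, rose, with 40.6, 39.8 and 36.2 at 0 h and 61.2, 67.8 and 65.1 at 24 h (0.56 ± 0.11, adjusted p = 0.00508). The octopamine and tyramine receptor gene Oct-TyrR passed at 0.38 (0.0348) and missed the threshold without any 1 of the non-conditioned arrays other than 24 h replicate 2. The ecdysone receptor gene EcR had a value of 0.00. The chaperone gene P58IPK of the endoplasmic reticulum rose, with 244, 300.4 and 257 at 0 h and 369.6, 351 and 356 at 24 h (0.41 ± 0.07, adjusted p = 0.00281).

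Other lists held a few calls each. Of 20 tested genes in a list of maltases, amylases and digestive enzymes 5 rose and 1 fell, 4 and 1 without 0 h replicate 3. The rises included the sterol-binding Npc2h and its neighbour Npc2g. In a list of autophagy and lysosome genes 2 of 33 rose, CtsL3 and LManII, against 3.63% of all genes. The median of that list was -0.037. CtsL3, a cathepsin gene, had 94.9, 81.4 and 77.1 at 0 h and 138, 129 and 138 at 24 h (0.59 ± 0.08, adjusted p = 0.000356), and LManII, an alpha-mannosidase gene of the lysosome, had 1512, 1583 and 1498 at 0 h and 1927, 1971 and 2022 at 24 h (0.36 ± 0.06, adjusted p = 0.000787). Of 42 translation factor genes 2 rose and 3 fell, 2 and 2 without 0 h replicate 3 and 1 and 1 without 24 h replicate 3. The elongation factor subunit gene eEF1delta rose by 0.36 (0.00281), and the falls eIF3d1, eIF3l and eIF3a, at -0.24, -0.31 and -0.25, all encode subunits of the initiation factor eIF3. All 3 of these falls missed the threshold without 24 h replicate 3 and in a fit of the non-conditioned arrays alone. Of 42 genes of phototransduction and the eye 3 passed as rises, 2 without 0 h replicate 3 and 0 without 24 h replicate 3. Of these, ninaD, which encodes a scavenger receptor for carotenoid uptake, had a change of 0.33 and was lost without replicate 1 or 3 of either group. The antioxidant gene Prx6c, of the peroxiredoxins, fell, with 1688, 1766 and 1755 at 0 h and 1223, 1259 and 1245 at 24 h (-0.48 ± 0.07, adjusted p = 0.000356), and the small heat shock protein gene l(2)efl fell by 0.34 (adjusted p = 0.00826), a call lost without replicate 3 of either group.

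Lists of genes of the nervous system held few calls or none. None of 46 synaptic and pan neuronal genes passed, with changes of -0.18 to 0.22, and none of 32 learning and memory genes, with changes of -0.39 to 0.38. The members of lowest p were tipE at 0.22 (adjusted p = 0.129) and rg at -0.20 (0.0819). Proteasome genes (0 of 30) and cytosolic ribosomal protein genes (0 of 35) had 0 calls with medians of 0.077 and -0.132, and 1 of 64 oxidative phosphorylation genes fell, ATPsyndelta at -0.30, with a median of -0.133. The low sums of 24 h replicate 1 in these 2 lists are given above, and their part in the 2 medians was not tested. In 11 of the 51 gene lists 0 members passed, in 23 the members past the threshold all lay on 1 side, and in 17 on both sides. Or1a, an odorant receptor gene, rose, from 1.24, 1.26 and 1.26 to 12.3, 11.5 and 10.9 (0.68 ± 0.14, adjusted p = 0.00712). Its 0 h values lay under 8.05, the lowest mean intensity among tested probe sets, where the size of a change depends on the offset of 16. The gene was tested in 24 of 26 alternatives and missed the threshold with only the arrays with # in the title.

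**Figure D4:**
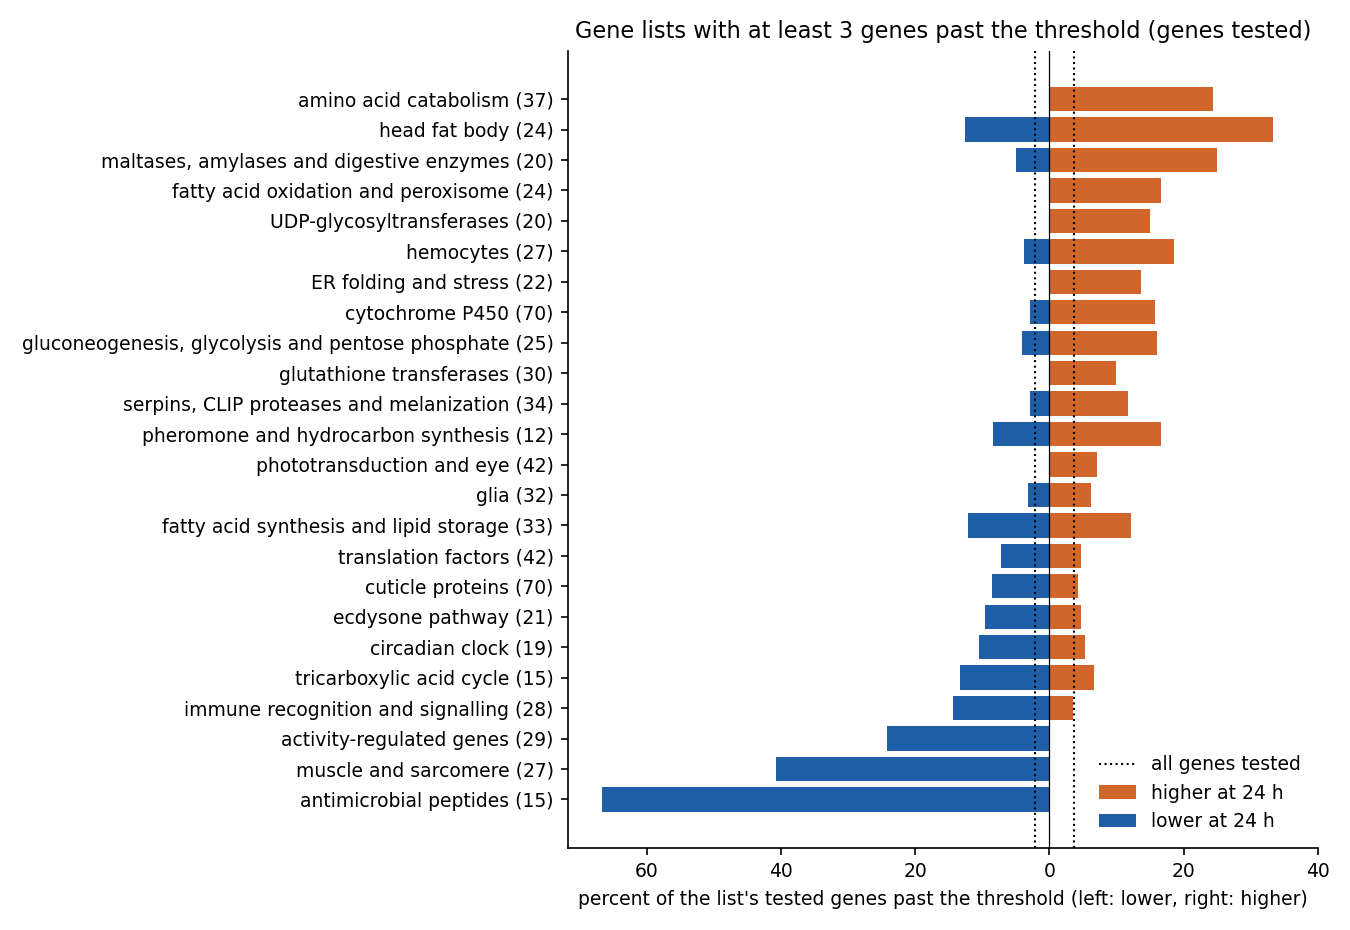
Percent of tested genes past the threshold, higher at 24 h to the right and lower to the left, for the 24 gene lists with at least 3 such genes; the number of genes tested is in brackets and dotted lines mark the shares over all genes (3.63% higher, 2.15% lower). Antimicrobial peptide and muscle genes reach furthest to the left, and head fat body genes furthest to the right. The lists were chosen with earlier results of these data known.

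Several of the strongest rises lay outside the lists, in genes for which no role is given here. CG9377 had 178, 201 and 177 at 0 h and 506, 436 and 594 at 24 h (1.38 ± 0.12, adjusted p = 5.61e-06), CG9416 rose by 1.00 and CG31075 and CG7997 by 0.95 and 0.94. Ance-5, an angiotensin-converting enzyme-like gene, had 284, 290.5 and 268 at 0 h and 568, 492 and 514 at 24 h (0.86 ± 0.06, adjusted p = 8.72e-07), and atk, a gene for a leucine-rich repeat protein of the extracellular matrix, rose by 0.84. CG15199 had 39.3, 41.0 and 46.3 at 0 h and 95.7, 95.5 and 85.2 at 24 h (0.89 ± 0.11, adjusted p = 0.000101). The largest rise and the largest fall lay in probe sets without a single gene name here. The probe set 1628699_at rose from 196, 207 and 189 to 1585, 1503 and 1090, a change of 2.70 ± 0.08 (adjusted p = 3.39e-12), and 1627551_s_at fell from 1108, 833 and 1016 to 34.9, 1.52 and 95.6 (-4.42 ± 0.41, adjusted p = 8.5e-06). Conditioned heads gave 2.89 for 1628699_at and -0.89 for 1627551_s_at. Of 1558 tested probe sets without a single gene name, 35 were higher and 39 lower.

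Some of the changed genes lie side by side in the RefSeq gene table (assembly Release 6 plus ISO1 MT). Of 5195 pairs of neighbouring genes that were both tested, 17 rose together, 7 fell together and 5 moved in opposite directions. Of all genes 3.63% rose and 2.15% fell, and the number of pairs to expect from these shares was not computed. The pairs that rose included Cyp4ac1 with Cyp4ac2, Cyp6a21 with Cyp6a8, Cyp12a5 with Cyp12a4 and Npc2g with Npc2h, of which Cyp6a8, Cyp12a5 and Npc2g were lost without any 1 of several arrays. The pairs that fell included BomBc2 with BomS2 and, chosen after their values were seen, BomT2 with BomS5 (-0.45) and BomT3 (-0.38) with BomBc3. Pairs with unlike names rose as well, among them Ance-4 with PPO2, CAH2 with Miox and ssp7 with CG15199. The named pairs of Cyp, Npc2 and Bom genes are related genes, and shared probe binding was not separated from joint change.

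Heads of conditioned flies gave a second view of the same interval on 6 other arrays. There 526 probe sets passed (4.67%), 304 higher and 222 lower. Of the 355 rises in non-conditioned heads 339 had the same sign in conditioned heads and 162 passed in the same direction, which is 45.6% of the non-conditioned and 53.3% of the conditioned rises. Of the 233 falls 214 had the same sign and 95 passed, 40.8% and 42.8%. The share of all probe sets tested that had the same sign in both sets of heads was not computed. The median change of the same probe sets in conditioned heads was 0.237 and -0.25. Both comparisons share the estimate of the spread and a covariate for whether an array's title carries a # sign, which it does in 2 arrays of each group. The counts in both sets of heads were lower without 3 conditioned arrays with yolk protein transcripts (Yp1 above 1000), which leaves 2 conditioned arrays at 0 h and 1 at 24 h.

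**Figure D5:**
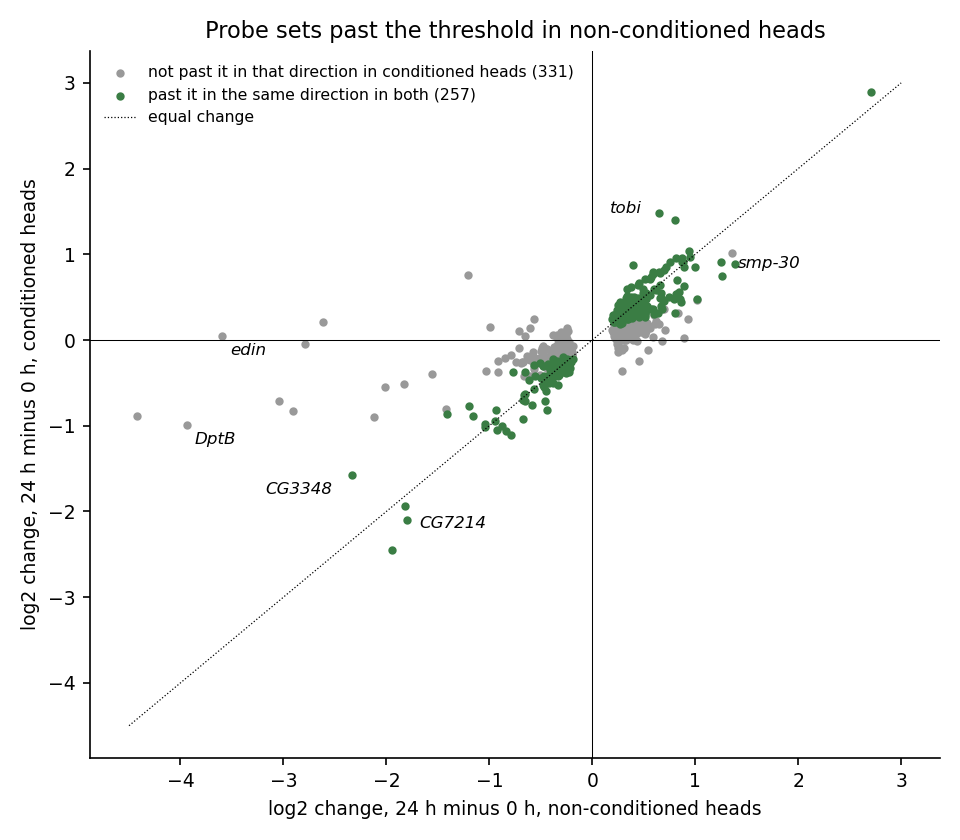
Log2 change from 0 h to 24 h in non-conditioned heads (horizontal) and conditioned heads (vertical) for the 588 probe sets past the threshold in non-conditioned heads; the 257 in green also passed in the same direction in conditioned heads, and the dotted line marks equal change. DptB and edin lie farthest to the left of the named genes, at -3.94 and -3.59, and at -0.997 and 0.05 in conditioned heads.

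Some lists had like counts in conditioned heads and others did not. There 11 P450 genes rose and 2 fell, 8 genes of amino acid breakdown rose and 11 muscle genes fell, whereas 1 of the sugar metabolism genes rose and 0 fell, and of the clock genes tim alone fell; Fbxl4 had a value of -0.24 (adjusted p = 0.0526). In conditioned heads the values were 0.96 for Cyp4ac1, 0.85 for Sodh1, 0.96 for Had1, 0.91 for PPO1, -0.35 for Tm2, -0.48 for tim and -2.10 for CG7214. For DptB, Mtk and edin the values in conditioned heads were nearer 0. In conditioned heads DptB had intensities of 2069, 1825 and 2210 at 0 h and 609, 1198 and 1399 at 24 h, a change of -0.997 (adjusted p = 0.222). Mtk had 4801, 3998 and 4501 at 0 h and 2853, 3787 and 3472 at 24 h there, a change of -0.40 (0.426), and edin had 219, 62.3 and 75.4 at 0 h and 42.8, 107 and 239 at 24 h with a value of 0.05. Of the 15 peptide genes 1 fell in conditioned heads, BomBc2, and the median was -0.255. The difference between the 2 sets of heads was tested directly and did not pass for any of these: 2.94 ± 0.60 for DptB (adjusted p = 0.12), 3.64 ± 0.88 for edin (0.213) and 1.16 ± 0.34 for Mtk (0.366).

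Tested over all probe sets, limma called 0 differences between the 2 changes; 810 had an unadjusted p below 0.05, and the lowest adjusted p was 0.0512. Probe sets that shared it included those of bmm, tobi and Irp-1B. In conditioned heads bmm had 399, 398 and 489 at 0 h and 454, 449 and 514 at 24 h, and the change there was 0.14. The gene tobi had 195, 162 and 150.2 at 0 h and 487, 534 and 473 at 24 h in conditioned heads, a change of 1.48 against 0.65. Irp-1B, a relative of iron regulatory proteins, rose in non-conditioned heads, with 698, 720.3 and 701 at 0 h and 833, 888 and 885 at 24 h (0.29 ± 0.07, adjusted p = 0.0316; 0.27 to 0.30 and past the threshold in none of the fits without 0 h replicate 1, 2 or 3 or 24 h replicate 2 or 3), and fell in conditioned heads, with 976, 1243 and 1048 at 0 h and 795, 894 and 838 at 24 h (-0.36, adjusted p = 0.0105). It was the single probe set of the 588 that passed in the opposite direction.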

How the data were processed

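Total RNA of whole Drosophila heads was hybridised to 12 single-colour Affymetrix arrays, 3 in each of 4 groups taken from the array descriptions. The deposited values are linear intensities, 1 for each probe set and array; as deposited, their 2%-trimmed mean is 150 on every array, and no source used here names the steps by which the authors summarised or scaled them. From the 18952 probe sets 183 controls were removed and the upper 60% by mean log2(intensity + 16) were kept, which left 11261. Means of the 4 groups, with a covariate for whether a title carries a # sign (8 arrays do and 4 do not), were fitted to all 12 arrays with limma 3.58.1 in R 4.3.3, using moderated variances with a trend, and p-values were adjusted over all 11261 probe sets by the Benjamini-Hochberg method at 0.05. The model left 7 residual degrees of freedom, and the number of arrays limits the precision. The code was tested on simulated data. Gene symbols came from the platform annotation: 13647 probe sets have 1 symbol, 402 several and 4720 none, and 13544 of the first matched the RefSeq gene table. A gene is represented by its brightest probe set.

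Named genes are, in each direction, the 20 with the largest change among those past the threshold with groups that do not overlap, up to 4 members of each gene list by lowest p (the member of lowest p where 0 passed) and a short list of clock, hormone and marker genes; other list members are named to complete their list. The comparison, the gene lists and the rules were chosen with earlier results of these data known. Alternatives changed the title term, the normalization, the offset, the filter, the variance model, the array weights, the arrays used and the threshold, and left out each array in turn. Replicate numbers follow the order of deposit and pair nothing. All 12 columns of the table were used.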

Additional observations from a re-analysis of the deposited data

Results flagged for a closer look

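Irp-1B changed in opposite directions in the 2 sets of heads, and its groups did not overlap in either. The conditioned minus non-conditioned difference in its change was -0.65 on the log2 scale, with an unadjusted limma p of 1.5e-05 and an adjusted p of 0.0512, which missed the threshold.

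Acp98AB, an accessory gland gene whose probe set was left out by the filter on dim probe sets, had an intensity of 351 in non-conditioned 0 h replicate 3 and at most 4.9 in each of the other 11 arrays. In all, 14 of 43 accessory gland probe sets stood out in that array, 12 of them left out by the filter, at intensities of 38.5 to 351.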

How the results depend on the processing

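Of the 588 probe sets past the threshold none changed sign in any alternative that tested it; 546 of them were tested in the upper 40% of probe sets by level and 586 with an offset of 1. Of 125 named genes past the threshold, 67 stayed past it under every alternative other than an adjusted p under 0.01, and 3 more did so under all but 1, which did not test them. Counts are given as higher and lower in non-conditioned heads, then past the threshold in conditioned heads, then differences between the 2 changes. With only the arrays with # in the title they were 146, 100, 151 and 6, and without a variance trend 209, 133, 235 and 0. Using only the non-conditioned arrays gave 184 higher and 107 lower, and 288 of the 588 were still past the threshold. Zasp66, Stat92E, NimC1, pirk and GstE9 were among the named genes lost in that fit. With only the conditioned arrays there were 1095 calls. An adjusted p under 0.01 gave 182, 112, 219 and 0, and under 0.10 it gave 523, 377, 852 and 10. With no filter the counts were 254, 162, 334 and 1, and with array weights they were 461, 338, 976 and 21. The count of differences was 2 without the title term, 3 under quantile normalization, 6 under median centring and 4 with an offset of 64. Without the 3 conditioned arrays with yolk protein signal, an alternative chosen after seeing the data, 18 conditioned calls and 3 differences were left. Leaving out 1 array at a time gave 171 to 385 higher, 126 to 370 lower, 227 to 729 conditioned calls and 0 to 8 differences; the lowest counts of the first pair came without non-conditioned 24 h replicate 3 and the highest without replicate 2 of that group. The cause of these shifts was not tested. No paired analysis was possible because the labels carry no replicate numbers that are shared between groups. Probe sets near the background, such as Or1a and the 24 h values of edin and Def, have changes whose size depends on the offset.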

Other observations

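Beside the pair described above, 2 further probe sets with no single gene name here changed strongly in non-conditioned heads. The probe set 1631803_at had intensities of 6.66, 7.01 and 10.49 at 0 h and 47.0, 42.3 and 35.2 at 24 h, a limma change of 1.26 ± 0.13 (adjusted p = 2.4e-05), and a change of 0.75 in conditioned heads. The probe set 1641419_at had 4450, 3738 and 5114 at 0 h and 439, 201 and 1535 at 24 h, a change of -3.04 ± 0.38 (adjusted p = 0.000113), and a value of -0.71 in conditioned heads (adjusted p = 0.34).

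Summed over the 29 tested activity-regulated genes, intensities were 12626, 12553 and 12370 at 0 h and 11000, 10605 and 10744 at 24 h, and the ranges did not overlap. For the 15 antimicrobial peptide genes they were 40670, 40442 and 46332 at 0 h and 24934, 27870 and 33433 at 24 h. Separate ranges were not particular to lists with calls. The 30 proteasome genes, of which 0 passed, summed to 15554, 15629 and 14771 at 0 h and 15837, 16607 and 16279 at 24 h.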
